A study of Mus musculus with 10 samples.

Results

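Hox genes encode homeodomain transcription factors and lie in 4 clusters of the mouse genome, Hox A on chromosome 6, Hox B on chromosome 11, Hox C on chromosome 15 and Hox D on chromosome 2. The genes studied here are all rows of the count and FPKM tables whose symbol is Hoxa, Hoxb, Hoxc or Hoxd followed by a number. This gave 30 of 24306 genes, with 9 in Hox A, 8 in Hox B (Hoxb2 to Hoxb9), 7 in Hox C (Hoxc4, Hoxc5, Hoxc6, Hoxc8, Hoxc9, Hoxc10 and Hoxc11) and 6 in Hox D (Hoxd3, Hoxd4, Hoxd8, Hoxd9, Hoxd10 and Hoxd11). Other Hox genes of the mouse were not analysed here.

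In the embryo, Hox genes are switched on in the order of their position in a cluster, and the combination that a cell expresses sets its identity along the body axis. Retinoic acid acts on several of them directly: it binds the receptors RARA, RARB and RARG, which pair with RXR proteins on DNA elements built from repeats of a short core motif. In the adult female tract, Hox genes of the later paralogue groups are known for regional identity of the oviduct and uterus.

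The mice were 6 weeks old with mixed C57BL/6 and 129 ancestry, and polyA RNA of their whole ovaries was sequenced in 10 libraries. Every animal was f/f at Rara, Rarb and Rarg, the controls included. Rar mutants (n = 3) were Sf1-Cre+ and Dmrt1 +/+. Dmrt1 het Rar mutants (n = 2) were Sf1-Cre+ and Dmrt1 fl/+. Controls (n = 5) were Sf1-Cre- and Dmrt1 +/+. Sf1-Cre is a recombinase under regulatory sequence of Nr5a1, a gene of somatic gonadal cells and other steroid-producing tissue, so cells that never used that sequence, germ cells among them, keep their receptors. Dmrt1 encodes a transcription factor of gonadal sex. The 5 Sf1-Cre+ ovaries together are called Cre-positive, since the study's design speaks of 5 replicates for each of 2 genotypes. The sources used here do not say whether each library came from its own animal, so p-values measure the spread between these libraries, which may be technical.

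Libraries held 21064856 to 25920131 counts, of which 2387 to 5523 fell on Hox genes. Markers of granulosa cells (10 of 10) and oocytes (10 of 10) were present in the tables and had summed levels of 2548 to 4745 CPM and 211 to 662 CPM in Cre-positive ovaries, against 2669 to 7130 CPM and 480 to 732 CPM in controls. Rarg, counted over the whole gene, was at 14.9 to 22.1 CPM in Cre-positive ovaries and 24.4 to 32.7 CPM in controls. Rara and Rarb overlapped between the groups, and counts over a whole gene cannot show whether floxed exons were lost. The titles carry numbers, and these split the libraries into a set under 7800 (Rar mutant 1, both Dmrt1 het Rar mutants and control 1) and a set of 7800 and over (Rar mutants 2 and 3 and controls 2 to 5). Rar mutants 2 and 3 stood apart in the markers of adrenal cortex, with sums of 298 and 273 CPM against at most 2.95 CPM elsewhere, mostly from Akr1b7 and Cyp11b1, while Cyp21a1 was at 0.0413 and 0 CPM in those libraries.

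The promoters of Hoxd10, Hoxd9 and Hoxd8 are shown because these neighbours carry most of the Hox D signal, and those of Hoxd4 and Hoxb4 because elements responding to retinoic acid have been described elsewhere in those loci in the embryo. The sequences are from RefSeq on GRCm38.p6, lie on the plus strand 5′ of the RefSeq start and stop before any exon of a protein-coding gene in GENCODE M21. Capitals mark the receptor core motif AGGTCA on either strand, so that a match on the minus strand reads TGACCT.
Hoxd10, chr2:74691641-74691890: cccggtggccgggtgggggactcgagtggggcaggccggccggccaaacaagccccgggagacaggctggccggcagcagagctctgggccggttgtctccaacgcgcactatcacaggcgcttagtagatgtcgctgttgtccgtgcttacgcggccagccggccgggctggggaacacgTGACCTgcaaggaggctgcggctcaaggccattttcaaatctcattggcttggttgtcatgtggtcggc
Hoxd9, chr2:74697513-74697726: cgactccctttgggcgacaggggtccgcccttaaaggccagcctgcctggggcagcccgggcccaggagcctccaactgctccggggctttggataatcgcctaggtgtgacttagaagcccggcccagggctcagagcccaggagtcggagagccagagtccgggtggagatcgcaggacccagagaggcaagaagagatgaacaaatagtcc
Hoxd8, chr2:74704365-74704614: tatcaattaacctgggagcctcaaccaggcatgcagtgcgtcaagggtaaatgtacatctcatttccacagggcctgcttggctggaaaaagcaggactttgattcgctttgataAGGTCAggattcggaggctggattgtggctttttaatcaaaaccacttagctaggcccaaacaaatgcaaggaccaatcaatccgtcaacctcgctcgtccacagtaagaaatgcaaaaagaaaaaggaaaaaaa
Hoxd4, chr2:74721728-74721977: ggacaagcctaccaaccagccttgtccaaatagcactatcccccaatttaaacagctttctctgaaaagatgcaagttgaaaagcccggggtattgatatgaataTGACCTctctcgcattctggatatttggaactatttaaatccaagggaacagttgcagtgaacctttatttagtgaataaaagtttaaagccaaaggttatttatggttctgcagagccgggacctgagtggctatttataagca
Hoxb4, chr11:96318017-96318266: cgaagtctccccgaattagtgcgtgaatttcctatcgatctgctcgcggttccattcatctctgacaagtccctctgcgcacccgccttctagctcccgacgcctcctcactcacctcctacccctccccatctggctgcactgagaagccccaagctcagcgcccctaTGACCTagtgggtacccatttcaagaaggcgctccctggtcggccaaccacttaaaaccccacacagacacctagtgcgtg

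The table of promoters held 18 for 16 of the 30 Hox genes, and motifs were searched on both strands in the 250 bases 5′ of each start. The core motif AGGTCA was in 6 of 18 Hox promoters (Hoxb4, Hoxc4, Hoxd3, Hoxd4, Hoxd8 and Hoxd10) and in 14.0% of all 32851 promoters. A direct repeat of 2 such motifs 5 bases apart (DR5), whose parts are also counted as core motifs, was in 0 of 18 Hox promoters and in 0.00913% of all. The motif TGATNNAT, known to be bound by Hox and Pbx proteins together, was in 3 of 18 Hox promoters (Hoxa2, Hoxb8 and Hoxd11) and in 7.68% of all. Hoxd9 held neither motif in its window. Hox promoters had a median GC content of 56.4% and a median of 12 CpG, beside 52.4% and 6 over all promoters.

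Levels were read from the deposited FPKM, which are per transcript length, so that genes can be set side by side. Hox transcripts came mostly from 2 clusters. Averaged over 10 libraries, Hox D gave 46.5% of the summed Hox FPKM, Hox C 40.5%, Hox B 9.41% and Hox A 3.53%. A mean of at least 1 FPKM was reached by 13 of 30 Hox genes and by 61.8% of all genes. By mean FPKM the leading genes were Hoxd9 at 12.3, Hoxd8 at 11.1, Hoxc6 at 9.66, Hoxc8 at 7.55 and Hoxd10 at 4.55. The first 2 did not differ beyond their spread: the ratio of Hoxd9 to Hoxd8 in FPKM ran from 0.752 to 1.03 in Cre-positive ovaries and from 0.896 to 1.52 in controls.

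**Figure D1:**
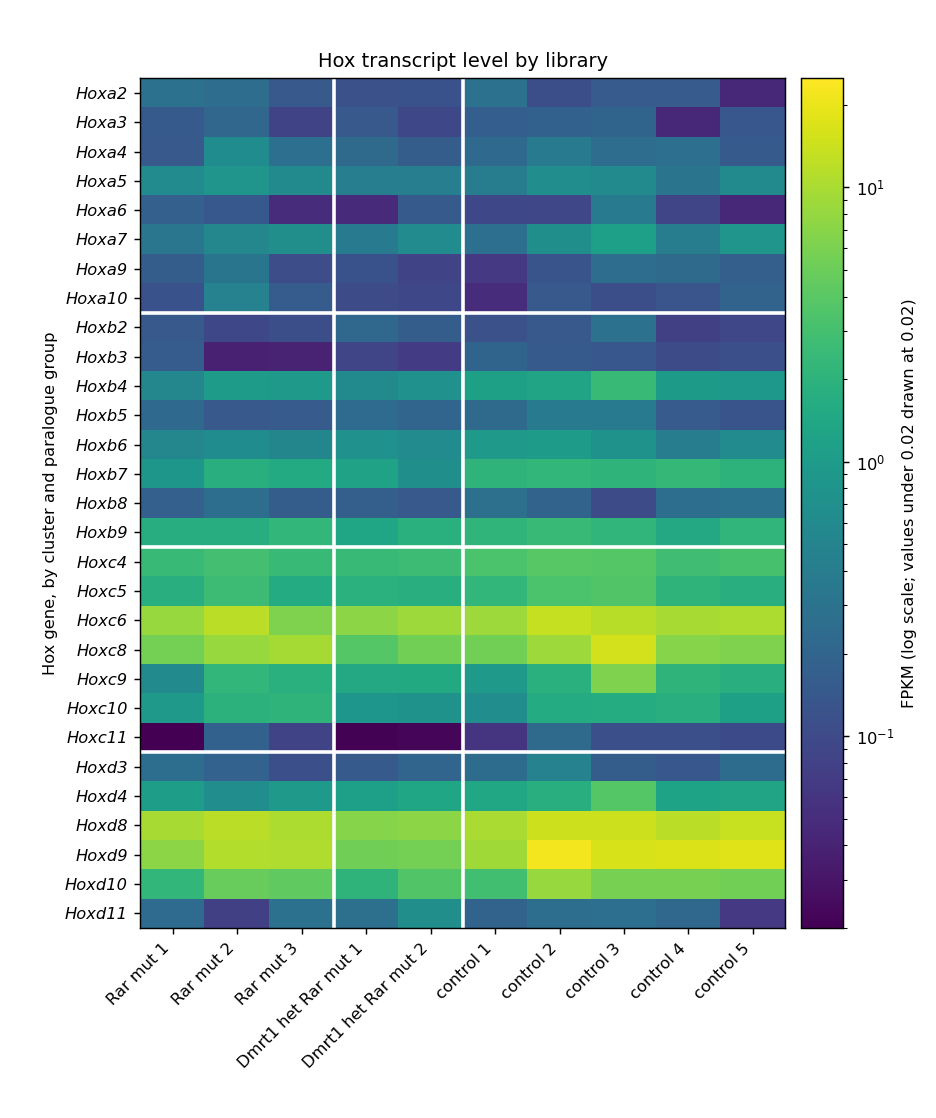
FPKM of 29 of the Hox genes (down the page, by cluster and paralogue group) in each of the 10 libraries (across, Rar mutants, Dmrt1 het Rar mutants, then controls), with colour on a log scale. Hoxd9, Hoxd8, Hoxc6 and Hoxc8 are brightest, and the Hox A genes are dark, with means of at most 0.587 FPKM.

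By paralogue group, the 6 genes of groups 1 to 3 had the lowest median of the mean levels, 0.144 FPKM, and a highest of 0.219 FPKM. The lowest genes of groups 4 to 8 (0.125 FPKM) and of groups 9 to 11 (0.0935 FPKM) were also under that highest value. The 15 genes of groups 4 to 8 had a median of 1.07 FPKM and the 9 genes of groups 9 to 11 a median of 1.34 FPKM. Levels did not run evenly along a cluster. In Hox D, Hoxd3 averaged 0.219 FPKM and Hoxd11, at the 5′ end, 0.257 FPKM, while Hoxd8, Hoxd9 and Hoxd10 lay between them on the chromosome. In Hox C, Hoxc4 averaged 3.01 FPKM and Hoxc5 2.27 FPKM, Hoxc6 and Hoxc8 were higher, and Hoxc9 (2.05 FPKM), Hoxc10 (1.34 FPKM) and Hoxc11 (0.0935 FPKM) were lower again toward the 5′ end. Counts of Hoxd3 and Hoxd4 are uncertain, because 62.3% of the exonic bases of Hoxd3 and 52.3% of those of Hoxd4 also belong to another gene on the same strand.

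Hox A was low in all 10 libraries. Its highest members were Hoxa7, which patterns the trunk, at a mean of 0.587 FPKM and Hoxa5, which acts in the lung and upper trunk, at 0.548 FPKM. Hoxa10, known for its part in the uterus, averaged 0.159 FPKM and Hoxa9, known for the oviduct, 0.166 FPKM. In Hox C, Hoxc11 had a count of 0 in Rar mutant 1, where 3 counts are 0.118 CPM. Markers of the uterus were close to 0 as well: 4 of 8 had a row, and their sum was 2.32 to 6.30 CPM in Cre-positive ovaries and 3.06 to 4.84 CPM in controls. Markers of oviduct epithelium (11 of 12) summed to 161 to 376 CPM in Cre-positive ovaries and 166 to 285 CPM in controls. Most of that sum was Tubb4b, a tubulin of cilia and other cells, at 144 to 330 CPM in Cre-positive ovaries and 134 to 221 CPM in controls.

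The first comparison sets all 5 Cre-positive ovaries against the 5 controls, all with floxed receptor genes. Loss of the receptors was not measured, and the Cre-positive ovaries include the Dmrt1 het Rar mutants. Most Hox genes had lower estimates in Cre-positive ovaries, and none passed an adjusted p of 0.05 in edgeR's quasi-likelihood test. Of 30 Hox genes, 25 passed the filter on low counts, and 0 of the 25 were called, beside 0.111% of all 18954 genes tested. An unadjusted edgeR p under 0.05 was reached by 7 Hox genes, Hoxd9, Hoxb7, Hoxd8, Hoxc4, Hoxd4, Hoxb4 and Hoxd10, and by 8.47% of all genes (1605). DESeq2 called 1 Hox gene, Hoxd9 (adjusted p = 0.0417), and 0.745% of all genes. The log2 fold change was negative for 21 of 25 Hox genes and for 49.8% of all genes tested, with a median of -0.38 for Hox genes and 0.00 for all genes. The set of title numbers under 7800 holds most Cre-positive ovaries but only control 1 of the controls. With that set as a term, 20 of 25 Hox genes were negative, with a median of -0.27, beside -0.02 for all genes. By cluster, without that term, the median was -0.61 in Hox D, -0.39 in Hox C, -0.34 in Hox B and -0.09 in Hox A. In whole ovaries, fewer cells of a type and less RNA per cell cannot be told apart.

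Some epithelial markers, like most Hox genes, had lower estimates in this comparison. Of the oviduct epithelium list, 8 were tested and 6 had a negative log2 fold change. An unadjusted edgeR p under 0.05 was reached by 4, with 0 called by edgeR and 2 by DESeq2, Epcam and Cdh1. Ovgp1, also among the 4, went the other way (log2 fold change 2.27, SE 0.75, edgeR adjusted p = 0.497). It was at 1.77 to 31.2 CPM in Cre-positive ovaries and 1.39 to 2.35 CPM in controls. DESeq2 called Ovgp1 higher in Rar mutants over controls (log2 fold change 2.81, DESeq2 adjusted p = 0.00426). Epcam, an adhesion protein of epithelia, was at 1.14 to 6.49 CPM in Cre-positive ovaries and 12.9 to 38.9 CPM in controls (log2 fold change -2.61, SE 0.47, edgeR adjusted p = 0.0744). Cdh1, the epithelial cadherin, was at 3.19 to 8.07 CPM in Cre-positive ovaries and 10.5 to 21.6 CPM in controls (log2 fold change -1.40, SE 0.27, edgeR adjusted p = 0.106). Neither gene overlapped between the groups. Negative estimates were also found for 10 of 10 oocyte, 6 of 7 endothelial and 7 of 13 theca and stroma markers. Smooth muscle (6 of 8) and erythroid (5 of 5) markers were mostly positive. DESeq2 called Tcf21 of theca and stroma (DESeq2 adjusted p = 0.0223) and Cldn5 of endothelium (DESeq2 adjusted p = 4.49e-05) lower. The part of epithelial or other cells in the Hox values was not tested.

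Summed over Hox D, the level was 20.9, 28.7 and 26.98 FPKM in Rar mutants and 15.8 and 18.8 FPKM in Dmrt1 het Rar mutants, against 23.9, 47.4, 40.7, 36.7 and 38.5 FPKM in controls. Control 1 lay among the Cre-positive ovaries, and the other controls lay above all of them. Hox B summed to 4.34, 5.65 and 5.72 FPKM in Rar mutants and 4.64 and 4.46 FPKM in Dmrt1 het Rar mutants, against 7.07, 7.92, 8.45, 5.73 and 6.31 FPKM in controls. The Hox B groups did not overlap, although Rar mutant 3 and control 4 nearly met. Hox C ran from 17.7 to 30.5 FPKM in Cre-positive ovaries and from 21.6 to 42.7 FPKM in controls, and Hox A from 1.72 to 3.57 FPKM in Cre-positive ovaries and from 1.69 to 3.11 FPKM in controls, both with wide overlap.

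**Figure D2:**
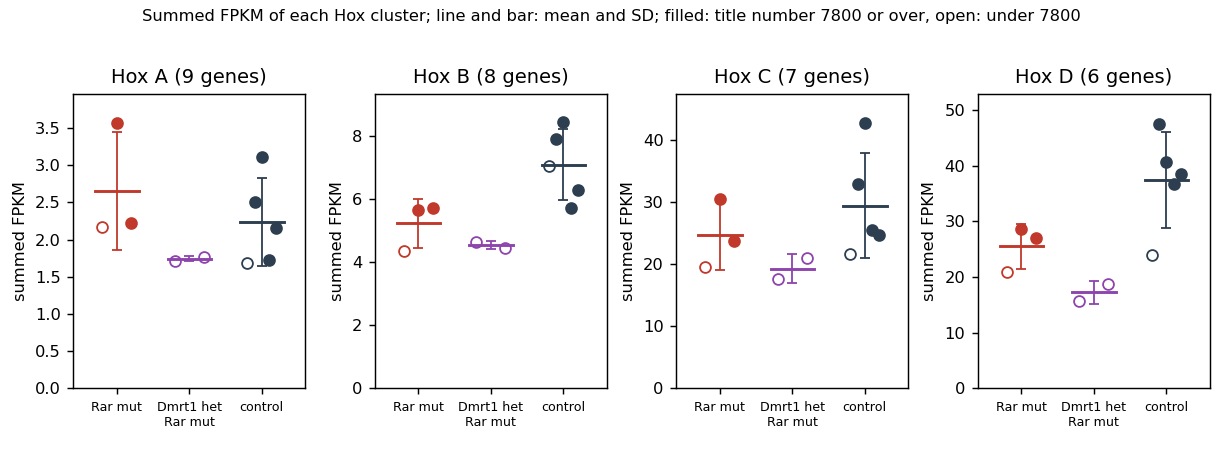
Summed FPKM of the genes of each Hox cluster in every library, for Rar mutants, Dmrt1 het Rar mutants and controls, with lines and bars for the mean and SD, and with open points for title numbers under 7800. Hox B of all Cre-positive ovaries lies below all controls, and control 1 is the lowest control for Hox D at 23.9 FPKM.

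Hoxd9, which acts in the limb and lower spine, had the smallest p of the Hox genes. Its level was 7.33, 11.1 and 10.8 FPKM in Rar mutants and 5.36 and 5.64 FPKM in Dmrt1 het Rar mutants, against 9.05, 22.1, 16.3, 17.3 and 17.9 FPKM in controls. Control 1 lay among the Cre-positive ovaries, and the other controls were above all of them. The gene lies on chromosome 2 at 74697727 to 74700208 (GRCm38, plus strand). In edgeR the log2 fold change was -1.04 with an SE of 0.27 and an adjusted p of 0.311. Among title numbers of 7800 and over it was -0.76 (SE 0.16) with an edgeR adjusted p of 0.0893, and with the title-number set as a term -0.69 (SE 0.13) with an edgeR adjusted p of 0.0865. Under 7800, the only control had 9.05 FPKM and the 3 Cre-positive ovaries 5.36 to 7.33 FPKM.

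Hoxd8, its 3′ neighbour, which acts in the trunk and in muscle of the limb, had 9.74, 11.9 and 10.5 FPKM in Rar mutants and 6.79 and 7.26 FPKM in Dmrt1 het Rar mutants, against 10.1, 14.5, 14.3, 12.0 and 13.6 FPKM in controls. Control 1 alone was below the highest Cre-positive ovary. The log2 fold change of Hoxd8 was -0.48 (SE 0.17) with an edgeR adjusted p of 0.527, and -0.31 (SE 0.13) with the title-number set as a term. Hoxd10, the 5′ neighbour, which acts in the hindlimb and lower spinal cord, had 2.26, 4.72 and 4.42 FPKM in Rar mutants and 2.09 and 3.62 FPKM in Dmrt1 het Rar mutants, against 2.90, 8.38, 5.82, 5.78 and 5.51 FPKM in controls. Control 1 was again the exception. Its log2 fold change was -0.73 (SE 0.30) with an edgeR adjusted p of 0.575, and -0.36 (SE 0.21) with the title-number set as a term.

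Hoxb7, a trunk gene of Hox B on chromosome 11 at 96286623 to 96290162, was the 1 Hox gene tested whose groups did not overlap in CPM, beside 1.10% of all genes tested that were lower without overlap. It had 0.868, 1.73 and 1.54 FPKM in Rar mutants and 1.22 and 0.704 FPKM in Dmrt1 het Rar mutants, against 2.05, 2.24, 2.06, 2.29 and 1.99 FPKM in controls. All controls lay in a narrow band above the Cre-positive ovaries. The estimate was a log2 fold change of -0.81 (SE 0.25) with an edgeR adjusted p of 0.464, and -0.40 (SE 0.24) with an edgeR adjusted p of 0.490 in title numbers of 7800 and over.

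**Figure D3:**
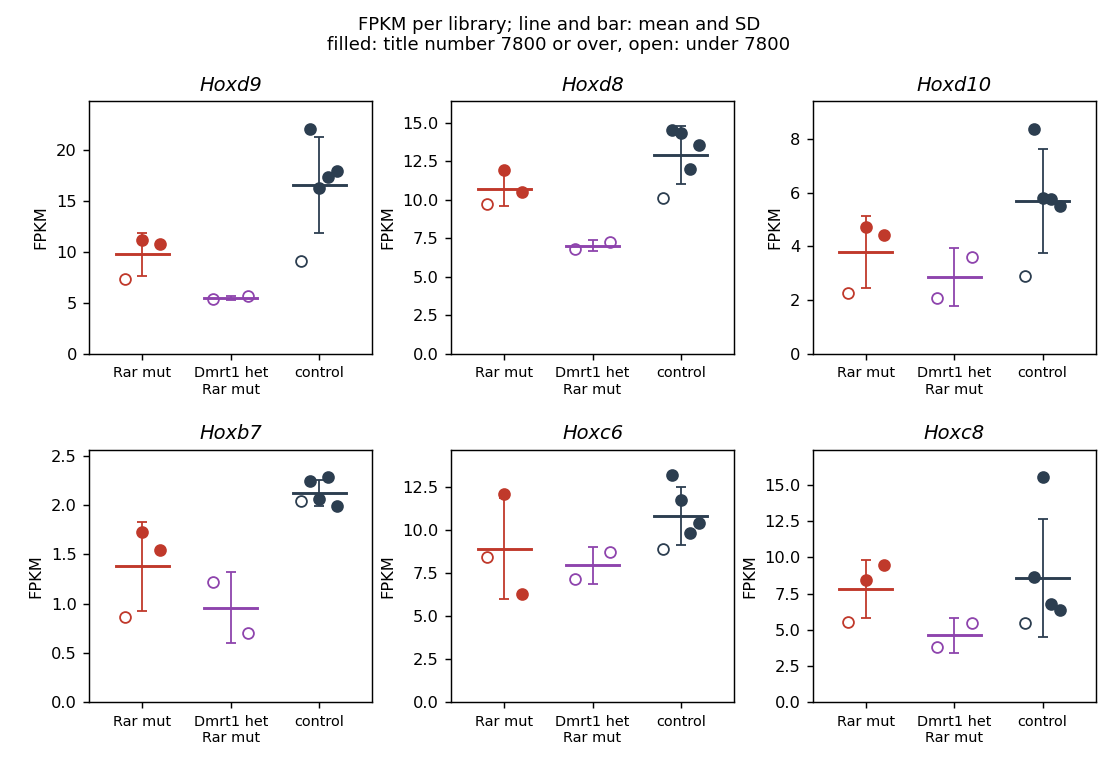
FPKM of Hoxd9, Hoxd8, Hoxd10, Hoxb7, Hoxc6 and Hoxc8 in every library for Rar mutants, Dmrt1 het Rar mutants and controls, with lines and bars for the mean and SD, and with open points for title numbers under 7800. For Hoxd9 and Hoxd10 the open control point lies far below the filled ones, and for Hoxb7 the controls lie between 1.99 and 2.29 FPKM.

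Hoxd4 and Hoxb4, both of paralogue group 4 and active in the hindbrain and neck of the embryo, leaned on control 3. Hoxd4 had 1.06, 0.668 and 0.912 FPKM in Rar mutants and 1.11 and 1.37 FPKM in Dmrt1 het Rar mutants, against 1.39, 1.74, 3.85, 1.27 and 1.27 FPKM in controls. Hoxb4 had 0.538, 1.04 and 0.929 FPKM in Rar mutants and 0.586 and 0.729 FPKM in Dmrt1 het Rar mutants, against 1.14, 1.30, 2.54, 0.984 and 0.886 FPKM in controls. Control 3 was far above the other controls for both. The log2 fold changes were -0.89 (SE 0.34) for Hoxd4 and -0.84 (SE 0.32) for Hoxb4, and without control 3 they were -0.47 and -0.50. Of 6 Hox genes listed with an embryonic response element, Hoxb1 was not analysed here, 3 were tested in this comparison (Hoxb4, Hoxb5 and Hoxd4), 2 had an unadjusted p under 0.05, and 0 were called by edgeR or DESeq2.

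In Hox C, Hoxc4 had 2.41, 2.96 and 2.45 FPKM in Rar mutants and 2.504 and 2.69 FPKM in Dmrt1 het Rar mutants, against 3.33, 3.95, 3.78, 2.85 and 3.14 FPKM in controls. Control 4 alone was below the highest Cre-positive ovary, and the log2 fold change was -0.39 (SE 0.15) with an edgeR adjusted p of 0.549. Hoxc6, which acts in the thoracic region, had 8.40, 12.1 and 6.25 FPKM in Rar mutants and 7.16 and 8.70 FPKM in Dmrt1 het Rar mutants, against 8.89, 13.2, 11.7, 9.81 and 10.4 FPKM in controls. Rar mutant 2 lay among the upper controls. Hoxc8, of the thoracic region and forelimb motor neurons, had 5.57, 8.43 and 9.48 FPKM in Rar mutants and 3.77 and 5.48 FPKM in Dmrt1 het Rar mutants, against 5.47, 8.68, 15.6, 6.77 and 6.34 FPKM in controls, with overlap. Hoxb9, the most 5′ of the Hox B genes studied, had 1.69, 1.69 and 2.24 FPKM in Rar mutants and 1.38 and 1.82 FPKM in Dmrt1 het Rar mutants, against 2.13, 2.46, 2.16, 1.47 and 2.18 FPKM in controls, also with overlap.

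The order of libraries was also read within each title-number set, a count chosen after the values were seen. In both sets at once, every Cre-positive ovary was below every control for 5 of 25 Hox genes tested, namely Hoxb3, Hoxb7, Hoxd4, Hoxd8 and Hoxd9. That is 20% of the Hox genes tested, beside 3.33% of all genes tested. The opposite order held for 1 Hox gene, Hoxc10, beside 4.03% of all genes. Of the exonic bases of Hoxb3, 52.9% are overlapped by Hoxb3os on the other strand, and without a stated strand setting their reads cannot be told apart. The set under 7800 has a single control, so the order there rests on control 1.

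Rar mutants alone were compared with controls in a fit of all 3 groups. Of 27 Hox genes tested, 0 were called by edgeR and 0 by DESeq2, and 4 had an unadjusted edgeR p under 0.05 (Hoxd9, Hoxd4, Hoxb7 and Hoxc4), as had 9.45% of all genes. Over all genes, edgeR called 0.00972% (2 of 20570) and DESeq2 1.74%. The log2 fold change was -0.77 (SE 0.26) for Hoxd9, -1.12 (SE 0.40) for Hoxd4 and -0.63 (SE 0.28) for Hoxb7, with edgeR adjusted p of 0.338, 0.368 and 0.511. Hoxb7 and Hoxd4 lay below the controls without overlap, as did 2.80% of all genes tested.

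Hox A differed in sign from the other clusters in this comparison. All 8 Hox B genes tested had a negative log2 fold change (median -0.47), as had all 6 of Hox D (median -0.51), or 5 of 6 with RLE scaling or DESeq2, under which Hoxd11 (-0.01) turned, and 5 of 6 of Hox C (median -0.34), while 6 of 7 Hox A genes were positive (median 0.41), beside a median of -0.02 over all genes. This rested on Rar mutant 2: without it, 3 of 7 Hox A genes were positive and the median was -0.30. Hoxa10 had 0.121, 0.477 and 0.159 FPKM in Rar mutants and 0.102 and 0.093 FPKM in Dmrt1 het Rar mutants, against 0.050, 0.146, 0.111, 0.131 and 0.195 FPKM in controls. Hoxa4, a gene of the hindbrain and neck, had 0.148, 0.644 and 0.272 FPKM in Rar mutants and 0.236 and 0.164 FPKM in Dmrt1 het Rar mutants, against 0.229, 0.375, 0.257, 0.268 and 0.150 FPKM in controls. In both, Rar mutant 2 was the highest of the 10 libraries. Hoxa5 had 0.630, 0.831 and 0.601 FPKM in Rar mutants and 0.423 and 0.417 FPKM in Dmrt1 het Rar mutants, against 0.410, 0.658, 0.606, 0.311 and 0.595 FPKM in controls. Hoxa7 had 0.329, 0.542 and 0.678 FPKM in Rar mutants and 0.377 and 0.620 FPKM in Dmrt1 het Rar mutants, against 0.268, 0.706, 1.124, 0.405 and 0.818 FPKM in controls. Both overlapped between Cre-positive ovaries and controls.

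Against the same controls, the Dmrt1 het Rar mutants had 0 of 27 Hox genes called by edgeR, beside 0.0194% of all genes (4 of 20570), and 6 Hox genes at an unadjusted p under 0.05, beside 17.3% of all genes. DESeq2 called 3 Hox genes, Hoxd9 (adjusted p = 0.000383), Hoxd8 (adjusted p = 0.00205) and Hoxb7 (adjusted p = 0.0450), and 1.78% of all genes. The log2 fold change was -1.58 (SE 0.31) for Hoxd9, -0.88 (SE 0.18) for Hoxd8 and -1.14 (SE 0.33) for Hoxb7, with edgeR adjusted p of 0.201, 0.209 and 0.243. Without control 1, the only control with a title number under 7800, edgeR called 364 genes. Hoxd9 (edgeR adjusted p = 0.0198) and Hoxd8 (edgeR adjusted p = 0.0355) were among them. In that fit genotype and title-number set coincide for these 2 groups. Negative log2 fold changes were found for 25 of 27 Hox genes (median -0.49) and for 52.0% of all genes (median -0.02). Both libraries lay below every control for 7 Hox genes (Hoxb3, Hoxb4, Hoxb7, Hoxc4, Hoxc6, Hoxd8 and Hoxd9), beside 14.0% of all genes tested. Hoxd11, singled out after its values were seen, was the 1 Hox gene above every control, beside 14.5% of all genes, at 0.278 and 0.671 FPKM in Dmrt1 het Rar mutants against 0.066 to 0.270 FPKM in controls (log2 fold change 1.22, SE 0.55, edgeR adjusted p = 0.288). Both libraries have title numbers under 7800, so Dmrt1 het status and the number set cannot be told apart.

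Most markers of the ovarian surface epithelium had lower estimates in the same libraries. All 12 were tested, 11 had a negative log2 fold change in Dmrt1 het Rar mutants over controls (median -0.97), 8 had an unadjusted p under 0.05, 0 were called by edgeR, and 4 by DESeq2 (Krt7, Krt18, Krt19 and Msln). Krt19, a keratin, had 10.7 and 12.7 CPM in Dmrt1 het Rar mutants against 25.6 to 84.8 CPM in controls. Msln, mesothelin of the surface layer, had 16.4 and 20.6 CPM in Dmrt1 het Rar mutants against 31.9 to 69.5 CPM in controls. Epcam, at 1.14 and 2.16 CPM in Dmrt1 het Rar mutants, was also called by DESeq2. The lean was not limited to epithelium. Negative estimates were also found for 8 of 8 smooth muscle, 11 of 13 theca and stroma, 6 of 7 endothelial and 9 of 10 oocyte markers. Granulosa (6 of 10) and leukocyte (4 of 5) markers were mostly positive. DESeq2 called Tcf21 of theca and stroma, and Cldn5 and Emcn of endothelium, lower. The part of these cells in the Hox values was not tested.

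Set directly against the Rar mutants, the Dmrt1 het Rar mutants had 0 Hox genes called of 27 by edgeR, beside 0% of 20570 genes. DESeq2 called 0 Hox genes and 3.66% of all genes, and 2 Hox genes (Hoxd8 and Hoxd9) had an unadjusted edgeR p under 0.05, beside 16.9% of all genes. The log2 fold change was -0.60 (SE 0.19) for Hoxd8, -0.81 (SE 0.32) for Hoxd9 and -1.02 (SE 0.47) for Hoxc10, with edgeR adjusted p of 0.216, 0.260 and 0.305. The comparisons of both mutant groups with controls share those controls.

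**Figure D4:**
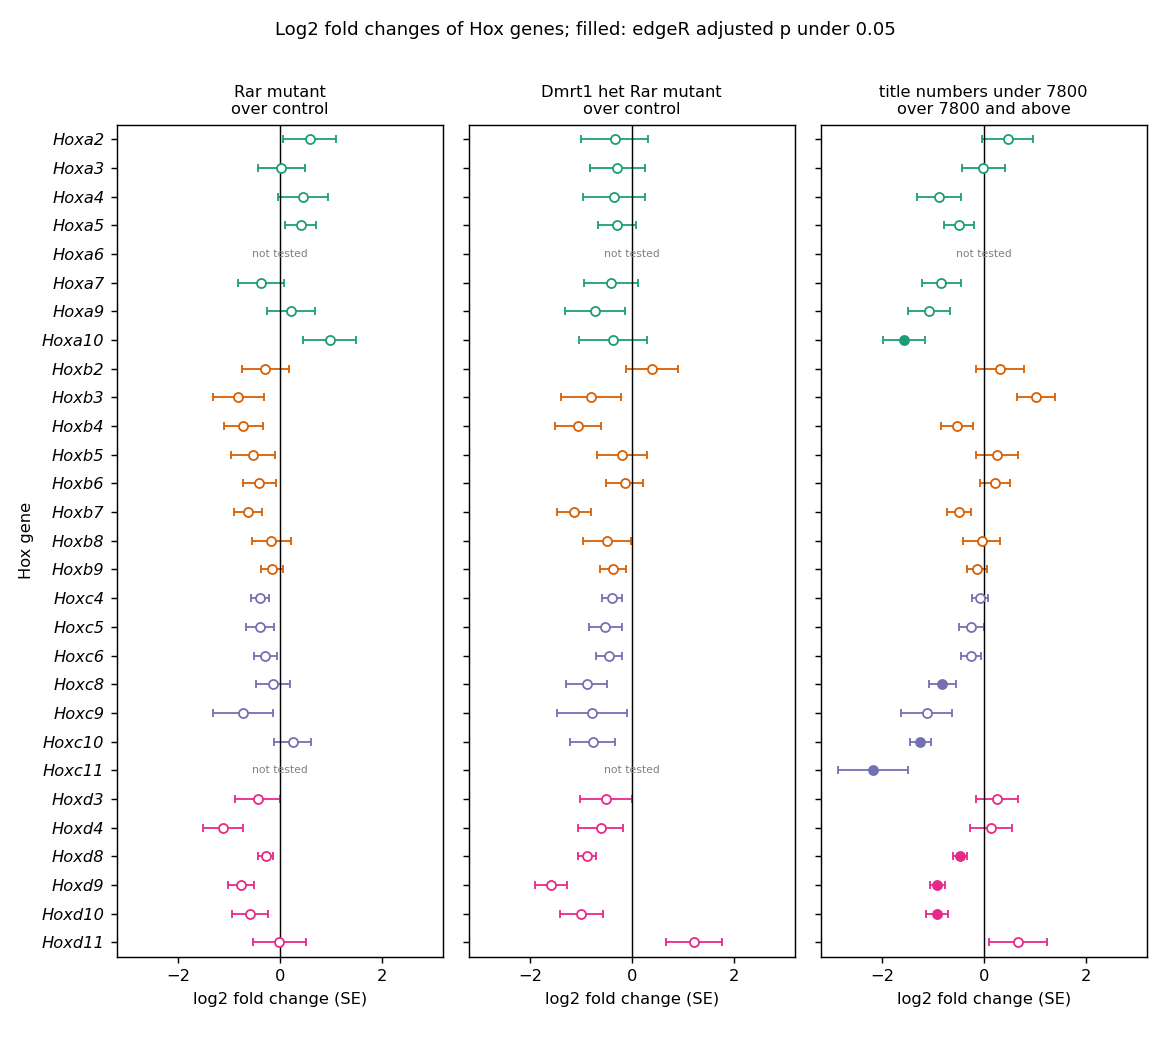
Log2 fold change (point) and SE (bar) of 29 of the Hox genes in Rar mutants over controls, in Dmrt1 het Rar mutants over controls, and in title numbers under 7800 over those of 7800 and above, with filled points for an edgeR adjusted p under 0.05. The 7 filled points are all in the right panel and all below 0.

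By title number, in a fit with a term for Cre, 7 of 28 Hox genes tested were called, all lower in the set under 7800, where 25.3% of all 21620 genes were called and 12.3% were called lower. The share of Hox genes called in either direction is thus close to that of all genes. DESeq2 called 8, with Hoxc9 added, and 28.9% of all genes. An unadjusted edgeR p under 0.05 was reached by 11 Hox genes, beside 38.8% of all genes. The log2 fold change of set under 7800 over set of 7800 and above was -0.91 (SE 0.14) for Hoxd9, -1.24 (SE 0.21) for Hoxc10, -0.92 (SE 0.22) for Hoxd10, -1.57 (SE 0.41) for Hoxa10, -0.47 (SE 0.13) for Hoxd8, -2.18 (SE 0.69) for Hoxc11 and -0.82 (SE 0.26) for Hoxc8, with edgeR adjusted p from 0.00235 to 0.0436. In paralogue groups 9 to 11, 8 of 9 genes were negative (median -1.07), and in groups 1 to 3 it was 1 of 5 (median 0.32), beside a median of -0.01 over all genes.

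Hoxc10, known for hindlimb motor neurons, had 0.909, 0.853, 0.752 and 0.658 FPKM in Rar mutant 1, Dmrt1 het Rar mutants 1 and 2 and control 1, against 1.98 and 2.04 FPKM in Rar mutants 2 and 3 and 1.61, 1.65, 1.79 and 1.15 FPKM in controls 2 to 5. The sets did not overlap for this gene. In CPM this held for 7 Hox genes tested, all lower in the set under 7800. The share of all genes without overlap between the sets was not counted, so the lack of overlap cannot be read as particular to Hox genes. Hoxc11, near the limit of detection, had 0, 0.021, 0.022 and 0.060 FPKM in the set under 7800, against 0.183 and 0.086 FPKM in Rar mutants 2 and 3 and 0.236, 0.113, 0.115 and 0.099 FPKM in controls 2 to 5, again without overlap. These calls depended on the libraries. Excluding both Dmrt1 het Rar mutants left 3 Hox genes called (Hoxd9, Hoxc10 and Hoxd10). Excluding Rar mutants 2 and 3 left 0 called by edgeR, with Hoxd9 at a log2 fold change of -1.005 (SE 0.24) and an adjusted p of 0.0850. With 1 library left out, the count was 2 (control 1), 3 (Dmrt1 het Rar mutant 2 or Rar mutant 2) or 4 (Dmrt1 het Rar mutant 1), and 5 to 8 for the others.

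Markers of other cells differed along the same libraries. Summed markers of the ovarian surface epithelium (12 of 12) were 307 to 552 CPM in Cre-positive ovaries and 456 to 726 CPM in controls. All 12 had a negative log2 fold change in the pooled comparison (median -0.36), 4 had an unadjusted p under 0.05, and 0 were called by edgeR or DESeq2. By title number, 7 of the 12 were called lower and 2 higher in the set under 7800. Erythroid markers (5 of 5) were all called lower in that set, with the highest sums in Rar mutant 3, Rar mutant 2 and control 3. Adipocyte markers summed to 77.0 CPM in Rar mutant 2, 77.0 CPM in control 3 and 61.3 CPM in control 1, and to 13.3 to 24.1 CPM in the others. The equal sums were made up differently. In Rar mutant 2 most was Fabp4 (41.5 CPM) and Plin1 (28.3 CPM). Adipoq was at 0.703 CPM there, against 2.71 CPM in control 3 and 3.86 CPM in control 1. Cfd was at 2.73 CPM in Rar mutant 2, against 22.3 CPM in control 3 and 8.50 CPM in control 1. Smooth muscle markers were at 1054, 1115 and 1143 CPM in Rar mutant 2, Rar mutant 3 and control 3, and at 507 to 768 CPM in the others. The part of these cells in the Hox values was not tested. Without Rar mutants 2 and 3, an alternative chosen after seeing the data, the pooled log2 fold change was -1.43 for Hoxd9, -1.18 for Hoxb7 and -0.69 for Hoxd8, with edgeR adjusted p of 0.141, 0.161 and 0.208. All Cre-positive ovaries left in that fit have title numbers under 7800, while control 1 is the only such control. These estimates therefore also hold the difference between the title-number sets.

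Cofactors and chromatin regulators of Hox genes were not called in the pooled comparison. Of 9 cofactors of the Pbx, Meis and Pknox families, which bind DNA together with Hox proteins, 0 were called in the pooled comparison by edgeR or DESeq2, and 0 had an unadjusted p under 0.05. Of 18 Polycomb genes, whose products keep Hox genes silent, 0 were called by either tool and 1 had an unadjusted p under 0.05, Ring1, at 28.9 ± 1.27 CPM in Cre-positive ovaries and 36.6 ± 5.91 CPM in controls (SD, n = 5 each). Of 10 Trithorax genes and H3K27 demethylases, which keep Hox genes active, 0 were called by either tool and 0 had an unadjusted p under 0.05. By title number, 4 of these 10 were called higher in the set under 7800 (log2 fold change 1.26 for Kmt2a, 1.36 for Kmt2d, 1.09 for Ash1l and 0.67 for Kdm6a) and 2 lower (-0.31 for Men1 and -0.49 for Dpy30), beside 25.3% of all genes called. Of the 18 Polycomb genes, 3 were called higher there (Phc3, Rnf2 and Suz12) and 1 lower (Phc2), and of the 9 cofactors 1 lower (Pbx2). These were named after their values were seen.

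Of genes beside the clusters, 8 of 10 were tested and 0 were called by edgeR or DESeq2 in the pooled comparison, with 1 at an unadjusted p under 0.05, Skap2 next to Hox A (log2 fold change 0.29, SE 0.13). Evx1, at the 5′ end of Hox A, stood at -0.65 (SE 0.30) and Lnpk, beside Hox D, at 0.38 (SE 0.23). DESeq2 called Mtx2, also beside Hox D, in Dmrt1 het Rar mutants over controls (log2 fold change -0.51, SE 0.14, DESeq2 adjusted p = 0.0306, edgeR adjusted p = 0.243) and over Rar mutants (DESeq2 adjusted p = 0.0423). Of 9 genes upstream of Hox transcription, 6 were tested, 0 were called by either tool and 1 had an unadjusted p under 0.05, Egr2, known for the hindbrain, at 13.6 ± 21.3 CPM in Cre-positive ovaries and 2.68 ± 1.64 CPM in controls (SD, n = 5 each), an SD above its mean. Of 14 receptors and enzymes of retinoic acid, 11 were tested and 0 were called by edgeR and 2 by DESeq2 (Rarg and Cyp26a1), and 1 had an unadjusted p under 0.05, Rarg (log2 fold change -0.64, SE 0.14, edgeR adjusted p = 0.190). DESeq2 called the same 2 in Rar mutants over controls, and Aldh1a2, an enzyme that makes retinoic acid, in Dmrt1 het Rar mutants over Rar mutants (log2 fold change -0.93, SE 0.26, DESeq2 adjusted p = 0.0358, edgeR adjusted p = 0.206). The authors' deposited table lists 185 genes, among them 0 of the 30 Hox genes.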

How the data were processed

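The members and gene lists were chosen with earlier results of these data known. Per the submitters' processing notes, Trimmomatic 0.32, STAR 2.4.2a, SAMtools 1.0 and DESeq2 1.12.3 were used on GRCm38; the counting tool and its strand setting are not given in the sources used here. The library kit is stranded, per the labels' protocols. The authors deposited raw counts per gene and normalized FPKM, and a table of their own comparison with a log2 fold change, its standard error, a Wald score, p-values and a mean normalised signal. Ratios of counts to FPKM gave transcript lengths of 0.999 to 1.03 times the annotated exon length of each Hox gene (GENCODE M21). The 438 identifiers without a symbol stayed in the fits.

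Counts were tested with edgeR 4.0.16 in R 4.3.3 (TMM, filterByExpr, robust quasi-likelihood fit), two-sided, with Benjamini-Hochberg adjustment over all genes tested and a threshold of 0.05. The SE is approximate: the log2 fold change, without its sign, over the square root of the F statistic. CPM are TMM-scaled. A count of 0 allows up to 3 counts, 0.116 to 0.142 CPM, for counting error only. DESeq2 1.42.0, other scaling and filters, a term for title number and leaving out libraries were alternatives. The fit was tested on data simulated without a difference between title-number sets, so that test does not cover such differences. Values in every library are printed for Hox genes called in a comparison, not overlapping between all Cre-positive ovaries and controls, among the 3 highest of a cluster, or among the 3 smallest p of a genotype comparison; from other lists up to 3 genes of smallest p are named. Some single-gene values are not reported here.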

Additional observations from a re-analysis of the deposited data

Results flagged for a closer look

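In 60 checks (30 Hox genes, over the 5 controls and over the 5 Cre-positive ovaries), 8 had a library farther from the rest than Dixon's 95% critical value of 0.710 for 5 samples. Chance alone gives about 1 in 20 for normally spread values in independent checks. The Hox genes share their libraries and a normal spread was not checked, so 8 of 60 cannot be weighed against that rate. Control 3 was the high library among controls for Hoxa6 (0.365 FPKM), Hoxb4 (2.54 FPKM), Hoxc9 (6.22 FPKM) and Hoxd4 (3.85 FPKM). Rar mutant 2 was the high library among Cre-positive ovaries for Hoxa4 (0.644 FPKM), Hoxa10 (0.477 FPKM), Hoxb8 (0.265 FPKM) and Hoxc5 (2.66 FPKM). For Hoxa5 all 3 Rar mutants lay above the control mean and both Dmrt1 het Rar mutants below it, and the 2 group means differed by 0.267 FPKM. Tested between these groups, the log2 fold change of Dmrt1 het Rar mutants over Rar mutants was -0.70 (SE 0.40, edgeR adjusted p = 0.376).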

How the results depend on the processing

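In the pooled comparison the 21 genes became 180 with DESeq2, 40 with title number as a term, 142 with title numbers of 7800 and over only, 7 without Rar mutants 2 and 3 (chosen after seeing the data) and 5 to 52 without single libraries; Hox genes called were 1 with DESeq2 and 0 under every other setting run. For Rar mutants the 2 genes became 372 with DESeq2, 85 with title number as a term, 142 with title numbers of 7800 and over only, 1 with the compared groups alone, 1 without Rar mutants 2 and 3, and 1 to 384 without single libraries (384 without Rar mutant 1), with 0 Hox genes throughout. For Dmrt1 het Rar mutants the 4 genes became 329 with DESeq2 and 0 to 364 without single libraries (364 without control 1), with 3 Hox genes under DESeq2 and 0 to 2 without single libraries. Between the Cre-positive groups the 0 became 626 with DESeq2 and 0 to 335 without single libraries (335 without Rar mutant 1), with 0 Hox genes throughout. By title number the 5476 became 1276 (3 Hox genes) without the Dmrt1 het Rar mutants, 194 (0 Hox genes) without Rar mutants 2 and 3, and 3252 to 6073 (2 to 8 Hox genes) without single libraries. The cause was not tested. In 70 alternative fits, no Hox gene with an unadjusted p under 0.05 or among the 3 smallest p of its comparison changed sign. Of the other Hox genes, 0 to 6 changed sign without single libraries and 0 to 8 under the other settings; without Rar mutant 2 these were Hoxa10 in the pooled comparison and Hoxa3, Hoxa4, Hoxa9 and Hoxd11 for Rar mutants. RLE scaling left the counts of Hox genes called as they were and turned Hoxd11 for Rar mutants and Hoxc4 between the Cre-positive groups, from log2 fold changes of -0.01 and 0.01.

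Whether replicate numbers pair the samples was not settled. Deviations of same-numbered Rar mutants and controls correlated at 0.460, 0.0255 and 0.267. Those of differently numbered Rar mutants and controls correlated at -0.441 to 0.271. With the replicate block, 0 genes were called in the pooled comparison and 2 for Rar mutants. For Dmrt1 het Rar mutants and between the Cre-positive groups it was 0, with 0 Hox genes in each of the 4.

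All Hox A genes averaged under 1 FPKM, where depth limits what can be detected. Groups were small, set and Dmrt1 het status are confounded, and strand use in counting is unknown.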

Other observations

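The Hox clusters also hold 8 noncoding genes with rows. Haglr, which overlaps exons of Hoxd3 on the other strand, had 23, 10 and 23 raw counts in Rar mutants and 11 and 10 in Dmrt1 het Rar mutants, against 24, 47, 30, 26 and 29 in controls. In raw counts every control was above every Cre-positive ovary, with the closest libraries at 23 and 24 counts. In CPM, 1.10% of all genes tested were lower without overlap. Its log2 fold change in the pooled comparison was -0.99 (SE 0.33, edgeR adjusted p = 0.497). Hoxd3os1, which overlaps Hoxd3 and Hoxd4 on the other strand, had 196, 176 and 117 raw counts in Rar mutants and 120 and 118 in Dmrt1 het Rar mutants, against 173, 246, 319, 209 and 213 in controls, with a log2 fold change of -0.67 (SE 0.23, edgeR adjusted p = 0.506). Whether the counts were made by strand is not given in the sources used here. In the overlapping bases, reads of Haglr and Hoxd3os1 and those of the Hox genes therefore cannot be told apart. Genes on the other strand overlap 8.78% of the exonic bases of Hoxd3 and 11.8% of those of Hoxd4. The other 6 had at most 24 counts in any library.

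The ratio of Hoxc8 to Hoxc6 was 1.52 in Rar mutant 3 and 1.33 in control 3, and ran from 0.527 to 0.698 in the other libraries.

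Pgr, a gene listed as a Hox partner, averaged 28.1 ± 58.6 CPM in Cre-positive ovaries and 1.498 ± 0.551 CPM in controls (SD, n = 5 each), and Lif 1.45 ± 1.03 CPM in Cre-positive ovaries and 0.697 ± 0.378 CPM in controls; neither was called by edgeR (adjusted p = 0.491 for Pgr and 0.618 for Lif) or by DESeq2.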
